A study of Homo sapiens with 2 samples.

Results

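The aryl hydrocarbon receptor AHR, its dimer partner ARNT and 4 of the classical target genes of the pair, CYP1A1, CYP1B1, TIPARP and AHRR, were followed through the cells of 1 culture, 6 genes of the 36601 in the count table. The culture came from HES2, a human embryonic stem cell line, and had been differentiated into sinoatrial node-like pacemaker cells, called SANLPC in the labels. The labels name no genotype, added agent or time point, so every cell shares the same line and protocol. RNA and the tag of a barcoded antibody against CD34 were sequenced as 2 libraries of the same cells (CITE-seq), and both libraries share all 14829 cell barcodes. With 1 culture of 1 line there was no replicate, so no p-value is given. Every interval below is an exact 95% interval for counting error of the unique molecular identifiers (UMIs) or cells, and it does not cover variation between cultures. Intervals on UMI levels and their ratios also do not cover variation between the cells of a group.

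The 6 genes were chosen with earlier results of these data known, and their levels in the cell classes belonged to that choice, so the differences between classes are descriptions. Of the 14829 barcodes, 11211 had at least 1000 detected genes, at most 25% mitochondrial UMIs and at most 35000 RNA UMIs. Epithelial-like cells (4046, 36.1% of the kept cells) had under 1000 CPM (UMIs of a gene per 1000000 RNA UMIs) of TNNT2, which encodes cardiac troponin T, under 1000 CPM of the collagen gene COL1A1, and at least 5 UMIs summed over VTCN1, GATA3, CLDN4 and WNT6. Fibroblast-like cells (617, 5.50%) had under 1000 CPM of TNNT2 and at least 2000 CPM of COL1A1. Cardiomyocytes (5516, 49.2%) had at least 2000 CPM of TNNT2, and 1032 cells (9.21%) met none of these rules. Median depth was 17452.5, 18537 and 16209 RNA UMIs in epithelial-like cells, fibroblast-like cells and cardiomyocytes, and the median mitochondrial share was 5.82%, 5.20% and 11.8%.

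The class names were checked against wider marker lists, which include some genes that the rule had used. The 10 epithelial markers summed to 10496 CPM in epithelial-like cells, against 1698 CPM in fibroblast-like cells and 1298 CPM in cardiomyocytes. The 9 cardiomyocyte markers, TNNT2 among them, summed to 1239, 1235 and 45489 CPM in the same 3 classes. The 8 fibroblast markers summed to 4330, 21337 and 764 CPM, so the epithelial-like cells also carried mesenchymal transcripts. Markers of amnion or surface ectoderm summed to 3141 CPM in epithelial-like cells, 192 CPM in fibroblast-like cells and 216 CPM in cardiomyocytes. Blood markers summed to at most 2.16 CPM in any class, and the neural gene STMN2 reached 146 CPM in fibroblast-like cells.

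AHR is a ligand-activated transcription factor that waits in the cytoplasm with HSP90 chaperones and PTGES3. Ligands such as polycyclic aromatic hydrocarbons, dioxins and tryptophan metabolites send it to the nucleus, where it pairs with ARNT and binds DNA elements with the core GCGTG. CYP1A1 and CYP1B1 encode cytochrome P450 enzymes that oxidise aromatic ligands and are the usual readout of the pathway. TIPARP encodes a mono-ADP-ribosyltransferase that dampens the receptor, and AHRR encodes a repressor that competes with it for ARNT. TIPARP also responds to other signals, such as platelet-derived growth factor and sex steroids.

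The promoter windows of the 2 targets whose levels ran in opposite directions between classes are shown here, from 250 bases before to 50 bases after the start given by RefSeq (GRCh38.p14), read 5′ to 3′ on the gene's strand. Capitals mark the core GCGTG or its reverse complement CACGC. CYP1A1 lies at chr15:74719542-74725528 on the minus strand, and its window is chr15:74725479-74725778. TIPARP lies at chr3:156674590-156706770 on the plus strand, and the window of its leading start is chr3:156674340-156674639.
CYP1A1: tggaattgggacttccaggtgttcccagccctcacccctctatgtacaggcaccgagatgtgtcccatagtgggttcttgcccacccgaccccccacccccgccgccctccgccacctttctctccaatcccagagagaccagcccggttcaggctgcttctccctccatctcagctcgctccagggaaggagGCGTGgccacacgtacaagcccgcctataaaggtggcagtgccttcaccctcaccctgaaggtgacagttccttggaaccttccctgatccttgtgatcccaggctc
TIPARP: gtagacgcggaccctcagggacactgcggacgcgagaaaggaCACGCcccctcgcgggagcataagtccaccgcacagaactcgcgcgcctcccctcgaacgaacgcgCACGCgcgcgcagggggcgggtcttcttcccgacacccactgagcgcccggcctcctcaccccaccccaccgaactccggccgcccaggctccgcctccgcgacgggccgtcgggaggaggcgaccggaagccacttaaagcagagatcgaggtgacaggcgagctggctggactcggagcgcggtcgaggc
The CYP1A1 window held 1 core, on the gene's strand, with its leftmost base at position -57 from the start. The TIPARP window held 2, both on the opposite strand, with their leftmost bases at -208 and -142. Among all 35116 windows of 300 bases in the table, 12832 (36.5%) held at least 1 core on either strand, so a match of this length is common and is no evidence of binding. AHR (chr7:17298652-17346147) had 1 core at position 37, AHRR (chr5:321714-438285) 1 at -30 in the window of its leading start, and ARNT (chr1:150809713-150876599) had none in its window. CYP1B1 lies at chr2:38067509-38076151. In all, 5 of the 6 genes had a window.

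Between epithelial-like cells and cardiomyocytes, the receptor and its P450 targets were higher and TIPARP was lower in epithelial-like cells. At 2-fold or more, among genes at 5 CPM or more in either class, 3 of 5 measured members were higher (AHR, CYP1A1 and CYP1B1) and 1 was lower (TIPARP). Over all 11867 genes measured in this comparison, 16.6% were higher and 14.9% lower by the same limit. Between fibroblast-like cells and cardiomyocytes, 2 of 4 measured members were higher (AHR and CYP1B1) and 0 lower, against 15% and 11.9% of 11937 genes. Between epithelial-like and fibroblast-like cells, 2 of 5 were higher (CYP1A1 and CYP1B1) and 1 lower (TIPARP), against 11.2% and 13.8% of 11944 genes. Without the upper limit on RNA UMIs the TIPARP ratio of this last comparison was 0.513, inside the limit. Because the choice of members used these contrasts, nothing is read from the counts themselves.

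**Figure D1:**
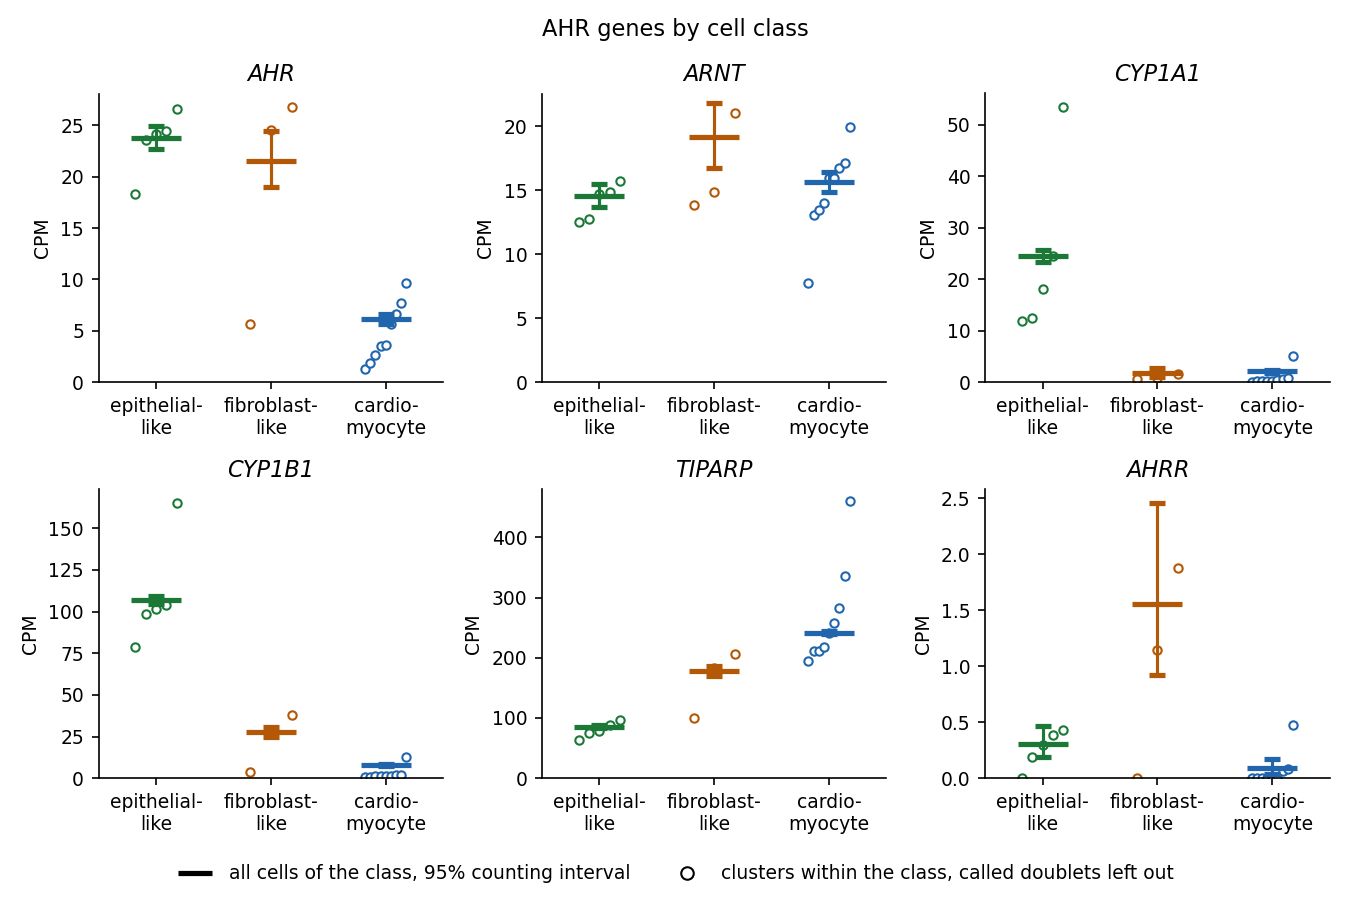
Levels of the 6 genes in CPM (vertical axis, linear, each panel on its own scale) by cell class. Horizontal marks give the whole class with its 95% counting interval and circles give clusters of at least 50 cells within the class with called doublets left out. CYP1A1 stood at 24.5 CPM in epithelial-like cells against 1.73 and 2.10 CPM in fibroblast-like cells and cardiomyocytes, while TIPARP ran the other way.

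The receptor transcript was found in all 3 classes and was lowest in cardiomyocytes. AHR had 23.8 CPM in epithelial-like cells (22.7 to 24.9, 1708 UMIs), 21.6 CPM in fibroblast-like cells (19.0 to 24.4, 250 UMIs) and 6.14 CPM in cardiomyocytes (5.65 to 6.67, 565 UMIs). The ratio of epithelial-like cells to cardiomyocytes was 3.87 (3.52 to 4.27), and that of fibroblast-like cells to cardiomyocytes was 3.51 (3.01 to 4.08). Epithelial-like and fibroblast-like cells were not separated beyond counting error, with a ratio of 1.10 (0.966 to 1.27). To compare shares of cells, each cell was thinned to 5000 RNA UMIs, which left out 68 epithelial-like cells, 20 fibroblast-like cells and 289 cardiomyocytes. An AHR UMI was then present in 11.6% of epithelial-like cells, 9.72% of fibroblast-like cells and 2.87% of cardiomyocytes, and in 30.8%, 24.6% and 8.41% unthinned.

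Within the classes AHR varied less between the epithelial-like clusters than between clusters of the other classes. Clusters were drawn from RNA without the 6 genes, and the values that follow leave out called doublets. The 5 epithelial-like clusters ranged over 18.3 to 26.6 CPM, lowest at 18.3 CPM (15.2 to 21.8) in cluster 2, led by the mitotic genes CCNB1, CDC20 and DLGAP5. Fibroblast-like cells of cluster 16 (LAMP5, ASPN, DLK1) had 24.5 CPM (21.1 to 28.3), against 5.71 CPM (2.74 to 10.5) on 10 UMIs in those of cluster 17 (ITLN1, SPRR2F, TNNT1). Among cardiomyocytes, AHR was highest at 9.61 CPM (8.11 to 11.3) in cluster 9, led by KCNG1, MYLK and AARD. The shallow cluster 12 gave 7.75 CPM on 3 UMIs. AHR was lowest at 1.30 CPM (0.712 to 2.19) in cluster 7, led by BCL2A1, GATM and SST. Cluster 8, led by the working myocardial genes NKX2-5, NPPA and LRRC10, had 1.87 CPM (0.685 to 4.06). No cardiomyocyte cluster reached the level of the lowest epithelial-like cluster.

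ARNT, the shared partner that AHR needs to bind DNA, hardly differed between classes. It had 14.5 CPM in epithelial-like cells (1043 UMIs), 19.2 CPM in fibroblast-like cells (222 UMIs) and 15.6 CPM in cardiomyocytes (1436 UMIs). The ratio of epithelial-like cells to cardiomyocytes was 0.930 (0.858 to 1.01), whose interval includes 1. Fibroblast-like cells were slightly above both, with a ratio to cardiomyocytes of 1.23 (1.06 to 1.41). Thinned shares of cells with an ARNT UMI were 6.66%, 9.55% and 7.67% in epithelial-like cells, fibroblast-like cells and cardiomyocytes.

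CYP1A1 was found mainly in epithelial-like cells. It had 24.5 CPM in epithelial-like cells (23.3 to 25.6, 1756 UMIs), 1.73 CPM in fibroblast-like cells (1.05 to 2.66, 20 UMIs) and 2.10 CPM in cardiomyocytes (1.81 to 2.42, 193 UMIs). The epithelial-like level was 11.7 times that of cardiomyocytes (10.0 to 13.6) and 14.2 times that of fibroblast-like cells (9.15 to 23.3). Fibroblast-like cells and cardiomyocytes were not separated, at a ratio of 0.822 (0.491 to 1.30). A CYP1A1 UMI was present after thinning in 7.69% of epithelial-like cells, 0.838% of fibroblast-like cells and 0.689% of cardiomyocytes, and unthinned in 14.95%, 2.92% and 1.74%.

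CYP1B1 differed in reaching fibroblast-like cells as well. Its level was 107 CPM in epithelial-like cells (7679 UMIs), 27.7 CPM in fibroblast-like cells (321 UMIs) and 7.88 CPM in cardiomyocytes (725 UMIs). Ratios were 13.6 (12.6 to 14.7) for epithelial-like cells over cardiomyocytes, 3.51 (3.07 to 4.01) for fibroblast-like cells over cardiomyocytes and 3.86 (3.45 to 4.33) for epithelial-like over fibroblast-like cells. Thinned shares were 28.3%, 10.1% and 2.09% of the 3 classes, and unthinned shares 47.7%, 19.8% and 5.57%. The antisense neighbour CYP1B1-AS1 had 117, 13 and 19 UMIs in them, and whether the counting used strand is not given in the sources used here.

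The P450 counts in cardiomyocytes moved with epithelial transcripts in the same droplets. Of the 5516 cardiomyocytes, 421 (7.63%) carried 5 or more UMIs of the 4 epithelial markers, and these held 81.4% of the CYP1A1 UMIs and 80.3% of the CYP1B1 UMIs of the class. CYP1A1 had 15.5 CPM in those cells, against 0.506 CPM in the 1498 cells with 1 to 4 marker UMIs and 0.410 CPM in the 3597 cells with 0. CYP1B1 had 57.3, 1.87 and 1.69 CPM in the same order. AHR followed less steeply, with 15.9, 5.41 and 4.72 CPM, and TIPARP ran the other way, with 162, 248 and 254 CPM. The 421 cells were deeper, with a median of 24819 RNA UMIs against 15408 in the cells with 0 marker UMIs.

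**Figure D2:**
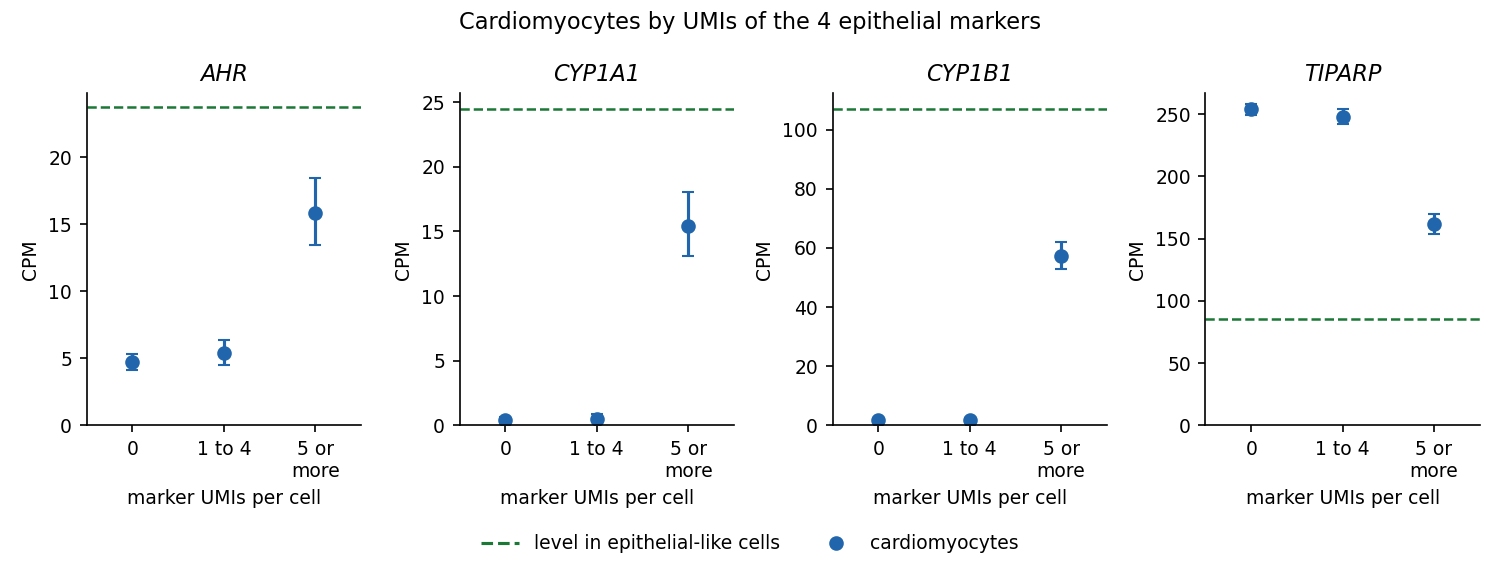
CPM of 4 genes (vertical axes, linear) in cardiomyocytes grouped by their summed UMIs of VTCN1, GATA3, CLDN4 and WNT6, with 95% counting intervals, and the level of epithelial-like cells as a dashed line. CYP1A1 and CYP1B1 stayed near 0 in cardiomyocytes with under 5 marker UMIs and reached 15.5 and 57.3 CPM in the others, while TIPARP fell towards the epithelial-like level.

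The cardiomyocyte level of CYP1A1 was 8.58% of the epithelial-like level and that of CYP1B1 7.37%, near the 6.05% to 7.997% found for the 4 epithelial markers themselves. Other epithelial genes were at 7.35% (KRT19) and 16.9% (EPCAM). No expression by cardiomyocytes is read from P450 counts in this range, and the part of free RNA and of doublets in them was not tested. AHR, at 25.8%, and TIPARP, at 283%, lay well above that range. A doublet caller (Scrublet) marked 10.3% of the cardiomyocytes, 8.43% of the fibroblast-like cells and 2.05% of the epithelial-like cells. With called doublets removed, and with the other 2 classes limited to cells without a marker UMI, a selection made after the data were seen, the ratio of epithelial-like cells to cardiomyocytes was 57.3 for CYP1A1 (38.1 to 90.7), 69.0 for CYP1B1 (55.7 to 86.6), 5.28 for AHR (4.61 to 6.07) and 0.335 for TIPARP (0.325 to 0.346).

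In fibroblast-like cells CYP1A1 was at 7.05% of the epithelial-like level, inside the 5.60% to 7.30% of the 4 markers, and CYP1B1 at 25.9%, above it. Under the same selection CYP1B1 still separated fibroblast-like cells from cardiomyocytes and CYP1A1 did not. CYP1B1 had 21.8 CPM in the 363 selected fibroblast-like cells and 1.56 CPM in the 3503 selected cardiomyocytes, a ratio of 14.0 (10.6 to 18.6). CYP1A1 had 0.948 and 0.426 CPM there, on 6 and 23 UMIs, with a ratio of 2.22 (0.741 to 5.62). Within the fibroblast-like class, CYP1B1 had 27.5 CPM in cluster 16 and 3.42 CPM on 6 UMIs in cluster 17, the same order as AHR.

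TIPARP had the opposite distribution to the P450 genes. Its level was 85.4 CPM in epithelial-like cells (83.3 to 87.6, 6134 UMIs), 178 CPM in fibroblast-like cells (170 to 186, 2061 UMIs) and 242 CPM in cardiomyocytes (239 to 245, 22244 UMIs). Ratios were 0.353 (0.343 to 0.363) for epithelial-like cells over cardiomyocytes, 0.735 (0.702 to 0.769) for fibroblast-like cells over cardiomyocytes and 0.481 (0.457 to 0.505) for epithelial-like over fibroblast-like cells. After thinning, a TIPARP UMI was present in 30.9% of epithelial-like cells, 52.9% of fibroblast-like cells and 65.1% of cardiomyocytes. Among cardiomyocyte clusters with called doublets left out, it ranged from 195 CPM in cluster 10 (TRH, SERPINI1, PRKG1-AS1) to 336 CPM in cluster 9, with 460 CPM in the shallow cluster 12. All of these lay above the 64.1 to 97.2 CPM of the epithelial-like clusters. TIPARP-AS1, its antisense neighbour, had 283, 14 and 187 UMIs in epithelial-like cells, fibroblast-like cells and cardiomyocytes.

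AHRR was close to the detection limit in every class. It had 22 UMIs in epithelial-like cells (0.306 CPM), 18 in fibroblast-like cells (1.55 CPM) and 8 in cardiomyocytes (0.0870 CPM), under the 5 CPM needed to be measured. The fibroblast-like level was 17.9 times that of cardiomyocytes (7.38 to 47.4), on these few UMIs. Of its 55 UMIs in kept cells, 16 came from the 552 cells of cluster 16. AHRR shares its locus with PDCD6, which had 7954, 1778 and 7768 UMIs in the 3 classes, and reads from the overlap cannot be assigned from the count table.

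**Figure D3:**
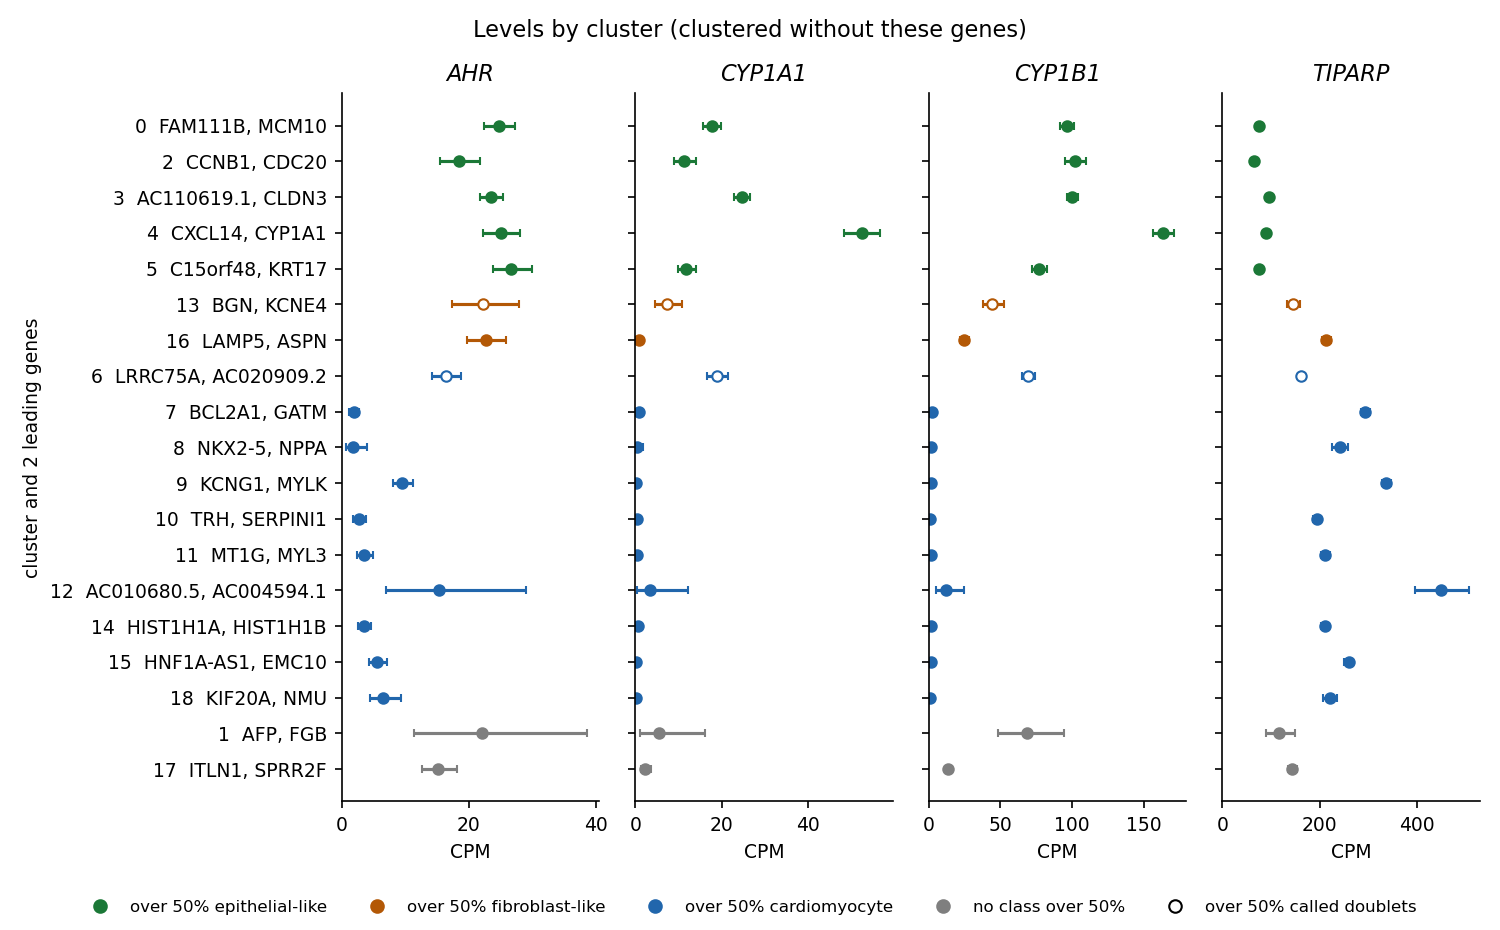
CPM of AHR, CYP1A1, CYP1B1 and TIPARP (horizontal axes, linear) in 19 clusters drawn without these genes, with 95% counting intervals, labelled by cluster number and 2 leading genes and coloured by the class that makes up over 50% of the cluster. Open symbols mark clusters of which over 50% were called doublets. Cluster 4 stood apart for CYP1A1 at 52.4 CPM and CYP1B1 at 164 CPM, and the cardiomyocyte clusters, apart from cluster 6 and the shallow cluster 12, were near 0 for both.

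Among the epithelial-like clusters, the P450 genes peaked together in cluster 4, while the receptor did not. With called doublets left out, the 656 epithelial-like cells of cluster 4, led by the chemokine gene CXCL14, by CYP1A1, which the clustering had not used, and by WNT7B, had 53.4 CPM of CYP1A1 (49.2 to 57.9) and 165 CPM of CYP1B1 (158 to 173). The next level of CYP1A1 was 24.4 CPM in cluster 3 (AC110619.1, CLDN3, ELF3), followed by 18.1 CPM in cluster 0 (FAM111B, MCM10, ESCO2), 12.4 CPM in cluster 5 (C15orf48, KRT17, IGFBPL1) and 11.8 CPM in cluster 2. CYP1B1 ranged over 78.6 to 104 CPM in those 4. AHR had 24.2 CPM in cluster 4, inside the range of the others, and TIPARP had 88.9 CPM there against 97.2 CPM in cluster 3. At the lower clustering resolution of 0.5 cluster 4 was no longer apart, and the highest cluster level of CYP1A1 was 27.8 CPM and that of CYP1B1 109 CPM. Cluster 6, of which 96.1% were called doublets, had 18.9 CPM of CYP1A1 with 76.1% of its cells in the cardiomyocyte class.

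Across the 19 clusters, the genes whose pattern was most like that of CYP1A1 were SCNN1A (Pearson r of log2(CPM + 1) 0.976), RAB27B, WNT7B, WNT6 and AC027031.2, among 9982 genes at 20 CPM or more in a cluster. SCNN1A encodes a subunit of the epithelial sodium channel, and WNT6 was one of the markers used to define the epithelial-like class. For CYP1B1 they were ANXA1 (0.992), PRAG1, PCSK5, AFAP1L2 and RHOU, and for TIPARP they were MTSS1 (0.967), FRY, PPFIA4, MIR99AHG and RNF150. CYP1A1 and CYP1B1 had an r of 0.935 with each other, AHR and CYP1B1 0.886, and TIPARP and CYP1B1 -0.785. All points share 1 culture and library and mainly set epithelial-like clusters apart from the others, so these values are descriptions without a p-value.

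Within epithelial-like cells CYP1A1 was concentrated in few cells. No CYP1A1 UMI was found in 3441 cells, 1 in 290, 2 to 4 in 203, 5 to 9 in 86 and 10 or more in 26, with a maximum of 34. The 405 cells with the most CYP1A1 (10%) held 88.6% of its UMIs, against 58.0% for CYP1B1, 50.8% for AHR and 37.9% for TIPARP, each over its own top cells. After thinning, the variance of CYP1A1 was 2.69 times its mean, whereas the median of this ratio was 1.03 over 4882 genes of similar mean, 4 of which exceeded CYP1A1. For CYP1B1 it was 2.82, exceeded by 20 of 2347 genes, and for TIPARP 1.34, exceeded by 161 of 2893 genes. For AHR it was 1.07, exceeded by 904 of 4917 genes with a median of 1.03. The P450 transcripts were therefore unevenly distributed among cells of 1 class. The receptor transcript was close to the ratio of 1 that counting alone gives, though above the median of genes of similar mean.

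The P450 genes were found in the same epithelial-like cells more often than in cells that lacked the other. After thinning, a CYP1A1 UMI was present in 17.2% (15.1 to 19.6) of the 1126 cells with a CYP1B1 UMI and in 3.93% (3.24 to 4.71) of the 2852 cells without one, 4.39 times as often. Seen from the other side, CYP1B1 was present in 63.4% of the 306 cells with CYP1A1 and 25.4% of the 3672 without. Median depth before thinning was 18070 and 17529.5 RNA UMIs in those 2 groups. The ratio of 4.39 became 3.61 to 3.77 at other thinning depths or another random draw. Inside each of the 5 epithelial-like clusters it lay between 3.25 and 5.26 in the first draw.

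TIPARP, lower in this class than elsewhere, went with CYP1A1 within it. A TIPARP UMI was present in 46.1% (40.4 to 51.8) of the cells with CYP1A1 and 29.6% (28.1 to 31.1) of those without, and in 36.6% of cells with CYP1B1 and 28.6% of those without. Its ratio by CYP1A1, 1.56, was 1.30 to 1.31 at the other depths and random draw. In the first draw it was 1.33 to 1.89 inside the 5 clusters, where the intervals with and without CYP1A1 overlapped in clusters 2, 4 and 5. A cell of the epithelial-like class had UMIs of 0, 1, 2 and 3 of the 4 targets in 49.3%, 36.8%, 11.4% and 2.51% of cases, and 0 of 3978 cells had all 4. At full depth, 5 epithelial-like cells (0.124%) had all 4. After thinning, exactly 2 targets were found in 7.20% of fibroblast-like cells and 1.63% of cardiomyocytes. None of the 4 was found in 42.9% of fibroblast-like cells and 33.96% of cardiomyocytes, lower shares than in epithelial-like cells. TIPARP without either P450 gene was present in 46.4% and 63.55% of those 2 classes, against 19.4% of epithelial-like cells.

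**Figure D4:**
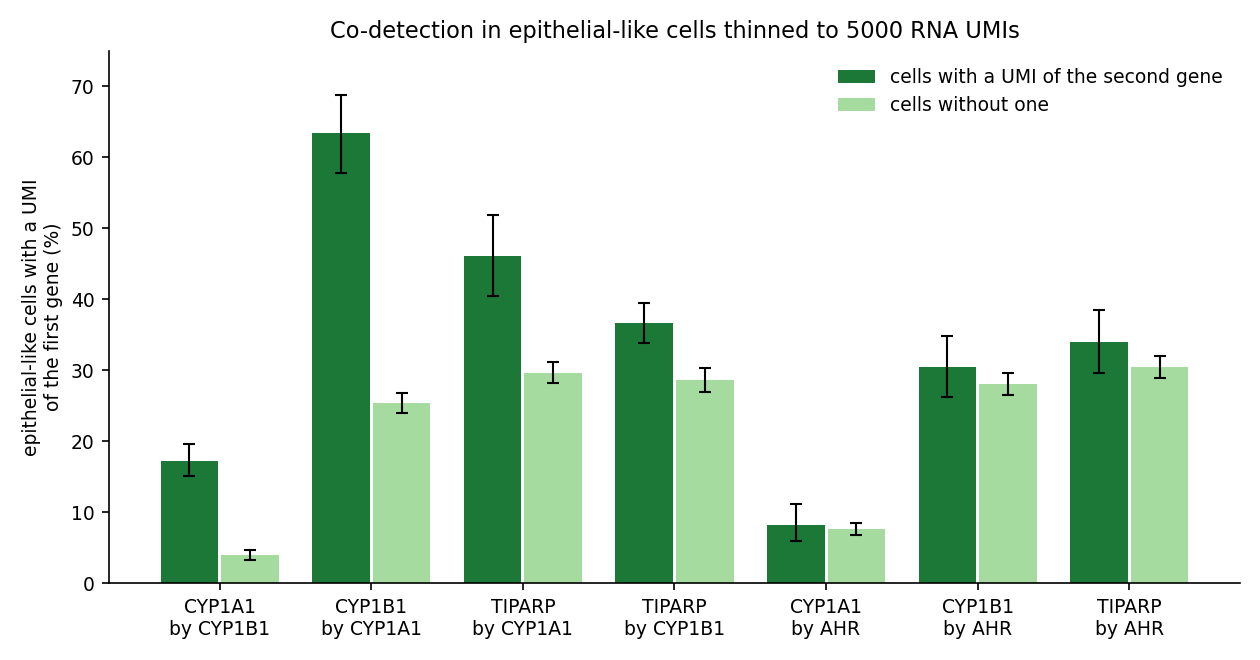
Percent of thinned epithelial-like cells with a UMI of a target (vertical axis, from 0), for cells with a UMI of a second gene (dark bars) and cells without one (light bars), with exact 95% intervals. The bars for CYP1A1 by CYP1B1 stood at 17.2% and 3.93%, and those by AHR nearly level at 8.26% and 7.62%.

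In epithelial-like cells the receptor transcript did not separate cells with targets from cells without them beyond counting error. Among epithelial-like cells with an AHR UMI (460) and without one (3518), CYP1A1 was present in 8.26% (5.91 to 11.2) and 7.62% (6.76 to 8.54), CYP1B1 in 30.4% (26.3 to 34.9) and 28.0% (26.6 to 29.5), and TIPARP in 33.9% (29.6 to 38.4) and 30.5% (29.0 to 32.0). The intervals overlap for each target. By ARNT, CYP1A1 was present in 7.55% of 265 cells with a UMI and 7.70% of 3713 without. AHR averaged 0.127 UMIs per thinned epithelial-like cell, so a cell without an AHR UMI may still express the gene. Only a difference in the transcript, not in the receptor protein or its activity, is measured here. In cardiomyocytes, CYP1B1 was present in 10.7% (6.22 to 16.7) of 150 cells with an AHR UMI and 1.83% (1.48 to 2.24) of 5077 without. These intervals did not overlap, while those of CYP1A1 and TIPARP did. Called doublets were kept there, held 82.6% of the CYP1B1 UMIs of the class, and their part was not tested. In fibroblast-like cells the intervals overlapped for CYP1A1, CYP1B1 and TIPARP.

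Grouping the epithelial-like cells by their own CYP1A1 count gave a graded relation for CYP1B1. In thinned cells with 0, 1, 2 to 4 and 5 or more CYP1A1 UMIs (3672, 202, 89 and 15 cells), CYP1B1 had 91.7, 292, 476 and 867 CPM. The 4 counting intervals did not overlap, the last reaching from 669 to 1105 CPM on 65 UMIs in 15 cells. They do not cover variation between cells, and the variance of CYP1B1 among thinned epithelial-like cells was 2.82 times its mean. The intervals are therefore too narrow for comparing groups of cells. TIPARP had 80.4, 150, 162 and 160 CPM, so it was higher from the first CYP1A1 UMI on and then level. All of these levels rest on the first random draw of the thinning. The second draw gave lower co-detection of CYP1B1 and TIPARP with CYP1A1. AHR had 25.3, 28.7 and 29.2 CPM in the first 3 groups and 0 UMIs in the 15 cells of the last, which allows up to 49.2 CPM. The groups had similar depth before thinning (medians 17529.5, 18787.5, 17640 and 17297 RNA UMIs) and mitochondrial share (5.81%, 5.77%, 6.06% and 5.75%). Their median summed UMIs of the 4 epithelial markers were 28, 32, 32 and 36. Cells with over cells without a CYP1A1 UMI had ratios of 1.39 for WNT6 (1.29 to 1.49), 1.03 for CLDN4, 0.896 for VTCN1 and 0.835 for GATA3. The groups also differed in several cell cycle genes, with MKI67, a proliferation marker, at 203, 182, 67.4 and 26.7 CPM and the mitotic cyclin gene CCNB1 at 100.2, 84.2, 17.98 and 26.7 CPM, the last on 2 UMIs each. TOP2A and UBE2C were higher again in the last group, on 8 and 3 UMIs. Cells with over cells without a CYP1A1 UMI had ratios of 0.694 for MKI67, 0.620 for CCNB1, 0.550 for TOP2A, 0.614 for CDK1, 0.534 for UBE2C and 0.787 for TYMS. The intervals of PCNA (0.834, 0.681 to 1.01) and MCM5 (0.974, 0.700 to 1.33) included 1. The keratin gene KRT17 had 131, 65.3, 51.7 and 80.0 CPM, and the part of these differences in the relation was not tested.

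**Figure D5:**
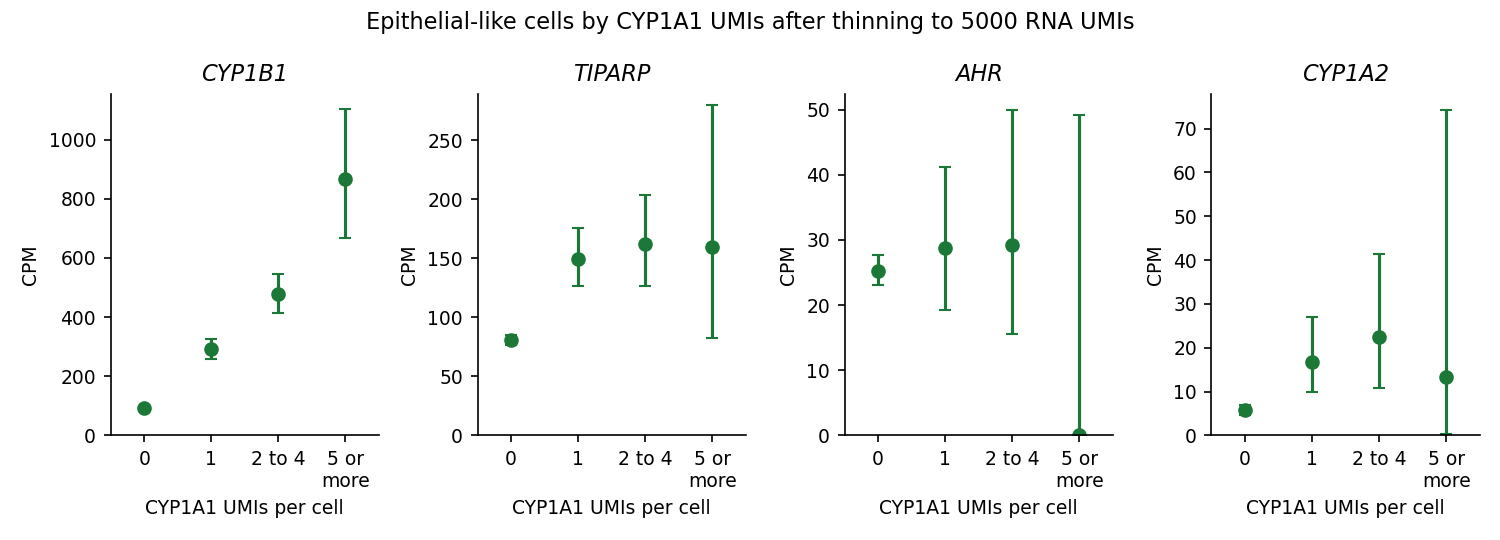
CPM of CYP1B1, TIPARP, AHR and CYP1A2 (vertical axes, linear) in epithelial-like cells grouped by CYP1A1 UMIs after thinning to 5000 RNA UMIs, with 95% counting intervals. CYP1B1 climbed from group to group up to 867 CPM, TIPARP stepped up once, and the intervals of AHR overlapped throughout. All values come from the first random draw of the thinning.

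Taking all 306 epithelial-like cells with a CYP1A1 UMI against the 3672 without, 0.896% of 11156 measured genes were higher by 2-fold or more and 1.27% lower. CYP1B1 was the member past that limit, at 374 against 91.7 CPM (4.08-fold, 3.70 to 4.49), and TIPARP was just inside it at 154 against 80.4 CPM (1.91-fold, 1.66 to 2.19). These values rest on the first random draw of the thinning. The second draw gave lower co-detection ratios with CYP1A1 for both genes, and the intervals do not cover that variation. AHR had a ratio of 1.09 (0.772 to 1.49) and ARNT of 0.958 (0.583 to 1.495). Of 16 further genes reported as AHR targets (a battery list compiled with these data known), 9 were measured, with 1 higher, 1 lower and 7 between. The higher was CYP1A2, the paralog beside CYP1A1 on chromosome 15 that encodes a liver P450, at 18.3 against 5.72 CPM (3.20-fold, 2.03 to 4.89), and it was present in 8.82% of cells with and 2.72% of cells without CYP1A1. The lower was SERPINB2, a protease inhibitor gene, at 3.92 against 11.1 CPM (a ratio of 0.353, 0.128 to 0.782), on 6 against 204 UMIs. NFE2L2, the regulator of the antioxidant response, had 92.2 against 58.7 CPM (1.57-fold, 1.31 to 1.87) and stayed between the limits.

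The same battery list was also set between epithelial-like cells and cardiomyocytes. Of its 16 genes 9 were measured, 7 higher and 0 lower, against 16.6% and 14.9% of all measured genes, with a median log2 ratio of 3.10 against 0.11 over all measured genes. SLC7A5, a transporter of large neutral amino acids, had 69.5 against 10.9 CPM, the lysophospholipid acyltransferase gene LPCAT2 had 89.9 against 7.45 CPM, and the adhesion scaffold gene NEDD9 had 37.4 against 12.8 CPM. CYP1A2, SERPINB2, CYP2S1 and SCIN were the other 4, all under 20 CPM and named after their values were seen. In this comparison these 4 reached the 5 CPM floor only through epithelial-like cells, with at most 1.12 CPM in cardiomyocytes. SCIN also reached it in fibroblast-like cells, at 8.80 CPM. The list was also compiled with these data known, so nothing is read from the count or the median. NQO1, a quinone reductase, had a ratio of 1.74 and NFE2L2 of 0.787. Between fibroblast-like cells and cardiomyocytes 6 were measured and 1 was higher, the actin-severing gene SCIN, a share near the 15% of all measured genes. Several of these genes are known to be expressed by epithelia in general, and the cause of the differences was not tested.

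Genes that serve the receptor protein differed by less than 2-fold. Of 11 chaperone and coregulator genes 10 were measured and 0 passed 2-fold in either comparison with cardiomyocytes, against 16.6% higher and 14.9% lower of all genes for epithelial-like cells and 15% and 11.9% for fibroblast-like cells, with median log2 ratios of 0.14 for epithelial-like and 0.06 for fibroblast-like cells. HSP90AB1, which encodes a chaperone that holds the receptor in the cytoplasm, had 1977 CPM in epithelial-like cells, 1870 CPM in fibroblast-like cells and 1219 CPM in cardiomyocytes. The other proteins that pair with ARNT differed more. HIF1A, the hypoxia-stabilised subunit, had 217, 110 and 96.4 CPM, and its relative EPAS1 had 594, 77.5 and 47.6 CPM, 12.5 times higher in epithelial-like cells than in cardiomyocytes (12.1 to 12.9). HIF3A had 3.64 CPM in epithelial-like cells, 45.5 CPM in fibroblast-like cells and 102 CPM in cardiomyocytes.

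Enzymes that make tryptophan-derived ligands were mostly under the floor. Of 9 kynurenine pathway genes, 2 were measured between epithelial-like cells and cardiomyocytes and 1 was higher, the aminotransferase gene KYAT3 (35.6 against 17.6 CPM, 2.02-fold), against 16.6% of all measured genes. IDO1 stayed at or under 1.21 CPM in every class. TDO2, which starts tryptophan breakdown in liver, had 15.1 CPM in fibroblast-like cells, 0.0418 CPM in epithelial-like cells and 0.0653 CPM in cardiomyocytes, and was named after its values were seen.

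The series was built around CD34 protein, so the members were also set against its antibody tag. Cardiomyocytes at or above the 75th percentile of antibody-tag UMIs (279 or more, 1380 cells) and those at or below the 25th percentile (45 or fewer, 1403 cells) had AHR at 6.98 and 4.81 CPM, a ratio of 1.45 (1.12 to 1.88), and 1.29 when tags were taken per RNA UMI. CYP1B1 had a ratio close to that of AHR, at 8.70 and 6.18 CPM (1.41, 1.12 to 1.77). Called doublets were kept in this comparison. In the whole class they held 34.5% of the AHR UMIs and 82.6% of the CYP1B1 UMIs, and their part in these ratios was not tested. TIPARP had 235 and 244 CPM (0.962, 0.926 to 0.9997, and 1.02 per RNA UMI) and ARNT a ratio of 1.05 (0.971 per RNA UMI). Of the 4 members measured at 5 CPM or more 0 passed 2-fold, against 0.737% of 11128 genes higher and 1.37% lower, so nothing is read from that count. Median depth was 17064.5 and 14292 RNA UMIs in CD34-high and CD34-low cells. For scale, TBX3, a sinus node transcription factor gene, had 379 and 74.3 CPM.

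The tag was low in epithelial-like cells (median 38 UMIs), and TIPARP was slightly lower in those with more of it. Cells with 52 or more tag UMIs and with 29 or fewer had CYP1A1 at 27.4 and 24.7 CPM (1.11, 0.978 to 1.26) and CYP1B1 at 105 and 111 CPM (0.946, 0.889 to 1.01). TIPARP had 78.5 and 91.3 CPM, a ratio of 0.860 (0.801 to 0.922). Of the 5 members measured there 0 passed 2-fold, against 0.0641% of 10928 genes higher and 0.0183% lower, and nothing is read from that count.

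The values of cells just inside and just outside the limits of the classes were as follows. Just above the TNNT2 limit, at 2000 to 2500 CPM, 219 cells had CYP1A1 at 9.61 CPM and TIPARP at 231 CPM, and just below it, at 1500 to 2000 CPM, 211 unclassed cells had 16.2 and 231 CPM. Around the epithelial marker limit, 117 cells with 5 to 7 marker UMIs had CYP1A1 at 14.95 CPM and CYP1B1 at 84.4 CPM, against 1.30 CPM, on 1 UMI, and 53.3 CPM in 119 cells with 2 to 4. At the COL1A1 limit, 53 cells at 2000 to 2500 CPM had CYP1B1 at 13.1 CPM and TIPARP at 196 CPM, and 80 cells at 1500 to 2000 CPM had 23.4 and 216 CPM.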

How the data were processed

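Per the labels' protocols, live single cells were sorted on DAPI without selection on CD34, stained with a TotalSeq antibody and captured with a 10x Genomics 3' v3 kit. The deposited counts are whole UMIs per gene and cell, made with Cell Ranger 6.1.2 per the file headers and with build GRCh38 per the submitters' processing notes. Whether counting used strand, and how free RNA was treated, is not given in the sources used here. The table held 239181462 RNA UMIs and 2773855 antibody-tag UMIs.

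The members, gene lists and cell rules were chosen with earlier results of these data known. The filters removed 3618 barcodes: 1975 had under 1000 genes, 1207 exceeded 25% mitochondrial UMIs, and 908 of those passing both had over 35000 RNA UMIs. UMIs were summed per class and scaled to CPM, with exact Poisson intervals, exact conditional binomial intervals for ratios and exact binomial (Clopper-Pearson) intervals for shares, all at 95% and for counting error only. Because all cells came from a single culture, no p-value was computed. A gene was measured at 5 CPM or more in either group and past the limit at a ratio of 2 or more or 0.5 or less. For shares, each cell was thinned to 5000 RNA UMIs by random draws without replacement.

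Clusters were made with scanpy 1.11.5 (2000 variable genes without the members, CD34, mitochondrial and ribosomal protein genes, 30 principal components, 15 neighbours, Leiden resolution 1). Scrublet, used for the levels of clusters within classes and for alternatives, called 1401 of 12119 cells (11.6%) doublets. Other tools were Python 3.11.15, numpy 2.4.6 and scipy 1.17.1, and the scripts were tested on simulated data. Named genes were the 6 members, listed pathway genes at 20 CPM or more in a class and past 2-fold, the 5 genes most like each of CYP1A1, CYP1B1 and TIPARP across clusters, and the 3 leading genes of each cluster described. Exceptions, such as genes under 20 CPM or between the limits, were named after their values were seen. Promoter windows, names and coordinates came from RefSeq tables of GRCh38.p14.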

Additional observations from a re-analysis of the deposited data

How the results depend on the processing

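Of 264 values recomputed under 16 other settings, 197 stayed inside the main value's counting interval or, for counts of genes, within 1.5 times the main count, 67 moved further and 0 reversed a called direction. For epithelial-like cells over cardiomyocytes, without an upper limit on RNA UMIs the ratios were 3.37 for AHR, 7.60 for CYP1A1, 7.75 for CYP1B1 and 0.376 for TIPARP. With a mitochondrial share up to 15% they were 3.46, 9.55, 10.9 and 0.339. With called doublets removed they were 5.05, 43.7, 67.0 and 0.338. Without epithelial marker UMIs in the other classes and without called doublets, chosen after seeing the data, they were 5.28, 57.3, 69.0 and 0.335. With cardiomyocytes at TNNT2 of 4000 CPM, AHR had 4.55, CYP1A1 20.8 and CYP1B1 28.7. As a mean of single-cell CPM, CYP1B1 had 16.1 and TIPARP 0.341. The cause of these moves was not tested.

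All genes past 2-fold numbered 2224 at a floor of 20 CPM and 13855 with none for epithelial-like cells over cardiomyocytes, against 3731 at 5 CPM. They numbered 1919 and 13641 against 3218 for fibroblast-like cells over cardiomyocytes, and 1605 and 13562 against 2993 for epithelial-like over fibroblast-like cells. Thinning to 3000 RNA UMIs gave CYP1A1 in 4.91% of epithelial-like cells and in 11.6% of those with CYP1B1, TIPARP in 28.3% of those with CYP1A1, and ratios of 3.61 and 1.31. Thinning to 10000 gave 12.01%, 21.8%, 63.5%, 3.77 and 1.30, and a second random draw at 5000 gave ratios of 3.64 and 1.31.

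No paired analysis was possible because the series holds 1 culture. The 1 culture of 1 line limits every result, and AHRR, with 55 UMIs in kept cells, is limited by depth.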

Other observations

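Retinoic acid genes went both ways between the classes. Of 14 listed genes 11 were measured between epithelial-like cells and cardiomyocytes, with 5 higher, CYP26B1 and RARG among them, and 4 lower, ALDH1A2 and RARA among them, against 16.6% and 14.9% of all measured genes. CRABP1, a retinoic acid binding protein gene, was 12.7 times higher, and ALDH1A1, which makes retinoic acid, had 4.04 CPM in epithelial-like cells and 201 CPM in cardiomyocytes. CYP26A1, which degrades retinoic acid and was named after its values were seen, had a UMI after thinning in 2.29% (0.925 to 4.66) of 306 epithelial-like cells with a CYP1A1 UMI and in 0.218% (0.0941 to 0.429) of 3672 cells without one, on 7 and 8 cells. Unthinned shares were 4.13% of 605 and 0.872% of 3441 cells. In cluster 4, 14 of the 23 epithelial-like cells with CYP26A1 also had CYP1A1 unthinned, against 23.7% of all cells of that cluster. In clusters 0, 2, 3 and 5 it was 5 of 14, 0 of 3, 5 of 12 and 1 of 3 cells. Nothing is read from these few cells.

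Of 12 hypoxia response genes 10 were measured in the same comparison, with 2 higher (NDRG1 and SLC2A1) and 3 lower (ADM, EGLN3 and ANGPTL4). Of 10 immediate early genes 10 were measured, with 5 higher (FOS, FOSB, JUN, ATF3 and KLF6) and 1 lower (NR4A1). The same shares of all genes apply. The chemokine gene CXCL14, named after its values were seen, had a UMI after thinning in 54.9% of epithelial-like cells with CYP1A1 and in 34.7% of those without.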
